A study of Homo sapiens with 6 samples.

Results

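Metallothioneins are small cysteine-rich proteins that bind zinc and copper, and zinc transporters of the SLC30 and SLC39 families carry zinc out of and into the cytosol. The genes described are 7 metallothionein genes (*MT1A*, *MT1E*, *MT1F*, *MT1G*, *MT1M*, *MT1X* and *MT2A*), 2 exporter genes (*SLC30A1* and *SLC30A10*) and 1 importer gene (*SLC39A14*). They were taken by gene symbol, and 9 of the 10 were found among the 20026 genes of the table. *MT1M* was not analysed here. Of the 9, 8 passed the filter on low counts in each comparison, and *MT1A* did not.

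RNA-seq was done on HepG2, a human liver cancer cell line, in 3 groups with 2 libraries each: miR-27a KO, miR-23a KO and a scramble control (Scr). For the KO groups, the methods describe pairs of sgRNAs flanking the mature miRNA, carried with Cas9 and GFP on the PX458 plasmid, and colonies grown after single-cell sorting; Scr cells received the empty PX458 vector. The labels do not say which colony a library came from, so a difference between groups and a difference between colonies cannot be told apart. The labels call the Scr cells WT and give a cell type wording that does not match HepG2, and the sample titles were followed.

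Library totals were 14891239 and 14405250 (Scr), 16515261 and 15930779 (miR-23a KO), 15850589 and 15947308 (miR-27a KO), given here and below in the order replicate 1, replicate 2. Each library was assigned by its label, since the genes of the edited miRNAs were not analysed here. Those of miR-23a KO stood far apart from each other. Of the genes that reached 40 counts over a pair, 47.55% differed over 2-fold between the miR-23a KO libraries, against 6.475% for Scr and 1.295% for miR-27a KO. Values of members that a miR-23a KO library decided are therefore also given without it, while those of the gene lists are not. Nothing says that the libraries of a group came from separate cultures, so p-values measure the spread between these libraries, which may be technical. With 2 libraries against 2, the smallest p an exact permutation over both directions can reach is 0.333, so 0.05 is out of its reach.

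Of the hepatocyte markers, 9 of 9 were found, with a summed level of 26750 and 35010 CPM (Scr), 29430 and 30820 (miR-23a KO), 19340 and 19060 (miR-27a KO), and *SERPINA1* was the most abundant. *ALB*, the serum albumin gene, had 10430 and 15120 CPM (Scr), 7903 and 14610 (miR-23a KO), 2089 and 2152 (miR-27a KO). *AFP*, the fetal counterpart of albumin, had 2591 and 3916, 3810 and 6520, and 184.6 and 191.8 CPM in the same order of groups. These 2 genes were lowest in the miR-27a KO libraries, while *SERPINA1* (10750 and 11030 CPM for Scr, 12770 and 12480 for miR-27a KO), *APOA1* (1173 and 1546, 1818 and 1795) and *HNF4A* (341 and 363, 411 and 421) were above Scr in both.

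Among markers of other cells, the summed level was 541 and 563 CPM (Scr), 264 and 255 (miR-23a KO), 1605 and 1667 (miR-27a KO) for 5 of 5 immune genes, with *LYZ*, a lysozyme gene, the most abundant. *LYZ* itself was at 377.5 and 409 CPM for Scr and at 1496 and 1561 for miR-27a KO, while *CD68*, a macrophage marker, was at 162 and 152 for Scr and at 107 and 103 for miR-27a KO, and *CD14* overlapped. *PTPRC*, which marks leukocytes in general, stayed between 0.0696 and 0.135 CPM in every library, and *CD3E* between 0.0539 and 0.473. For 2 of 6 fibroblast genes the sum was 17.5 and 29.3, 29.8 and 19.7, and 5.76 and 5.12 CPM, most of it *PDGFRB*. For 3 of 4 endothelial genes it was between 3.35 and 6.84 CPM, most of it *PECAM1*. No marker found was at 0 in all 6 libraries. The part of these shifts in the results below was not tested.

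Zinc, copper and cadmium raise metallothionein transcription through MTF1, a zinc-finger factor that binds metal response elements in the promoters, and glucocorticoids and interleukin-6 act on several of the same genes. The liver is a main site of metallothionein synthesis, where the proteins buffer zinc and copper. *SLC30A1* is itself a target of MTF1 and exports zinc at the plasma membrane.

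The mature miRNAs targeted in the KO groups are shown first because their seeds (bases 2 to 8, in capitals) differ in a single base. Both come from RefSeq (GRCh38.p14), at chr19:13836595-13836615 for miR-23a-3p and chr19:13836447-13836467 for miR-27a-3p, minus strand. Both are transcribed together with miR-24-2, and the level of each miRNA of this cluster was not analysed here, so a KO group may differ from Scr in more than the targeted miRNA.
miR-23a-3p: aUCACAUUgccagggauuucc
miR-27a-3p: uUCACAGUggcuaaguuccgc

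Exact matches to these seeds (AATGTGA for miR-23a-3p, ACTGTGA for miR-27a-3p) were searched in the 3'-UTRs of GENCODE release 29. No match to the miR-27a-3p seed was found in the 9 genes. *MT2A*, *SLC30A1* and *SLC39A14* each had 1 match to the miR-23a-3p seed, where 18% of 15883 genes had at least 1, and 15.5% had at least 1 for miR-27a-3p. The match lies at base 111 of the 143 bases of the *MT2A* 3'-UTR and at base 2930 of 3820 in *SLC30A1*, and is written in capitals in its surroundings.
*MT2A*: ttctatgaaatAATGTGAatgataataaa
*SLC30A1*: ctatggaacctAATGTGAagtatttcgta

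Promoters are shown for the metallothionein members that the table holds and for the exporter under MTF1. The core letters of the metal response element, TGCACNC and TGCGCNC, were searched on both strands. The stretch searched ran from 250 bases before to 50 bases after the gene start. Of 35116 RefSeq promoters, 29.6% held at least 1 match, 8.6% at least 2, 0.601% at least 4 and 0.074% at least 6. The table holds promoters of *MT2A*, *MT1X*, *SLC30A1* and *SLC30A10* among the members searched. *MT2A* had 8 matches, *MT1X* 4, *SLC30A1* 2, and the 2 entries of *SLC30A10* had 0. Matches are in capitals, the sequences are from GRCh38.p14, and a match is a description of letters only.
*MT2A* (chr16:56608334-56608633, plus strand): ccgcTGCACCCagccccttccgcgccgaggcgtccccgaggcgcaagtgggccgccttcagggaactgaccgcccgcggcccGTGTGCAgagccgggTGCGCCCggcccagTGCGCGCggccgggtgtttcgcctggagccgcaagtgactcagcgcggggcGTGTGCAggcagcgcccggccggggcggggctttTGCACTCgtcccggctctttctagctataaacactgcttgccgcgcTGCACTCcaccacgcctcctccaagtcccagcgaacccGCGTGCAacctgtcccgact
*MT1X* (chr16:56682220-56682519, plus strand): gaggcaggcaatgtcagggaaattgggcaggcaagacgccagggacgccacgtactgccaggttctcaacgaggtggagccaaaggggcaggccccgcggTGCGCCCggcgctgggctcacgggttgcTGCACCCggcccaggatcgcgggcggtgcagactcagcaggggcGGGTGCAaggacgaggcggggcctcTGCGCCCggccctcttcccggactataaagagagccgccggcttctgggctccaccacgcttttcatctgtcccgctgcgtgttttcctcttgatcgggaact
*SLC30A1* (chr1:211579112-211579411, minus strand): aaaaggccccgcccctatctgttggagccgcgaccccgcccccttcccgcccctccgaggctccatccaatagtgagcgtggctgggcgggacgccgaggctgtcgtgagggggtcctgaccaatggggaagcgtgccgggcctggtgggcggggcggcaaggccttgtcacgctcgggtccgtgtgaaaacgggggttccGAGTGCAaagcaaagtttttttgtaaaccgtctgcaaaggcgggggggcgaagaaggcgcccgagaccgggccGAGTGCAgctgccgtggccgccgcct

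The main question for each KO was whether metallothionein RNA differed from Scr. In miR-27a KO cells, 4 of the 5 tested metallothionein genes were called lower than in Scr, beside 6.74% of all genes: *MT1E*, *MT1F*, *MT1G* and *MT2A*. A fit of all 6 libraries called 0 of them, beside 61 lower and 3 higher among all 14163 genes tested. The fitted levels were between 3.94-fold and 19.8-fold lower, and those of *MT1E* and *MT2A* depended on which Scr library was used. *MT1X* was lower in both libraries without passing the test. In miR-23a KO cells, none of the 5 passed the test in edgeR, as was the case for all 13786 genes tested, and their values spread widely between the 2 libraries. These are levels of RNA in bulk samples, in which fewer cells of a type and less RNA per cell cannot be told apart.

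*MT2A* (gene 4502, chr16:56608584-56609497), the most abundant metallothionein here, had 421.5 and 112 CPM (Scr), 232 and 145 (miR-23a KO), 34.2 and 37.4 (miR-27a KO). Both miR-27a KO libraries were below all others, and the miR-23a KO libraries lay between the Scr libraries. Means with SD (n = 2) were 267 ± 219 CPM (Scr), 188 ± 61.5 (miR-23a KO), 35.8 ± 2.24 (miR-27a KO). For miR-27a KO against Scr, the log2 fold change was -2.90 (standard error 0.63) and the adjusted p 0.0411 (edgeR with Benjamini-Hochberg adjustment). It moved to -1.64 without Scr replicate 1 and to -3.56 (-3.555) without Scr replicate 2, and was called in both cases. The call was lost without the filter on low counts (adjusted p 0.0778) and in a fit of all 6 libraries (adjusted p 0.194), by edgeR with Benjamini-Hochberg adjustment; over the alternatives that kept all libraries it was 0.00224 to 0.194.

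*MT1E* (gene 4493) encodes a metallothionein 1 isoform next to *MT2A* on the chromosome. Its level was 77.6 and 19.5 CPM (Scr), 45.4 and 21.1 (miR-23a KO), 2.42 and 2.47 (miR-27a KO). Again, the miR-27a KO libraries were the lowest and close to each other, and the Scr libraries were 3.98-fold apart. The log2 fold change of miR-27a KO against Scr was -4.31 (standard error 0.75), with an adjusted p of 0.0265 from edgeR with Benjamini-Hochberg adjustment. Without Scr replicate 1 it was -2.98 (-2.985) and without Scr replicate 2 it was -4.98, called in both cases. *MT1E* was not called without the filter on low counts (adjusted p 0.0519) or in a fit of all 6 libraries (adjusted p 0.115), by edgeR with Benjamini-Hochberg adjustment; over the alternatives that kept all libraries the range was 8.11e-05 to 0.115.

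*MT1G* (gene 4495), another metallothionein 1 isoform, had 28.4 and 20.6 CPM (Scr), 29.2 and 2.42 (miR-23a KO), 3.76 and 3.31 (miR-27a KO). Here miR-23a KO replicate 1 was as high as Scr, while replicate 2 was lower than both miR-27a KO libraries. For miR-27a KO against Scr the log2 fold change of -2.80 (-2.795) had a standard error of 0.24 and passed the test (adjusted p 0.00678, edgeR with Benjamini-Hochberg adjustment). A fit of all 6 libraries ended this call, at -2.79 with a standard error of 1.02 (adjusted p 0.5515, edgeR with Benjamini-Hochberg adjustment; 5.78e-16 to 0.5515 over the alternatives that kept all libraries).

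*MT1F* (gene 4494) had 12.8 and 10.1 CPM (Scr), 23.6 and 2.85 (miR-23a KO), 3.15 and 2.65 (miR-27a KO). On either side of Scr lay the miR-23a KO libraries, and both miR-27a KO libraries lay below Scr. The log2 fold change in miR-27a KO was -1.98 (standard error 0.26; adjusted p 0.0147, edgeR with Benjamini-Hochberg adjustment). Without miR-27a KO replicate 2, *MT1F* no longer passed (log2 fold change -1.85, adjusted p 0.0881 in edgeR with Benjamini-Hochberg adjustment; 0.000275 to 0.0881 over the libraries left out). Nor did it pass in a fit of all 6 libraries (standard error 0.89, adjusted p 0.731 in edgeR with Benjamini-Hochberg adjustment; 1.15e-05 to 0.731 over the alternatives that kept all libraries).

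*MT1X* (gene 4501) had 36.7 and 18.4 CPM (Scr), 54.6 and 11.8 (miR-23a KO), 10.2 and 11.4 (miR-27a KO). Both miR-27a KO libraries were below all others, by little in the case of miR-23a KO replicate 2. The log2 fold change of -1.35 (standard error 0.35) in miR-27a KO had an adjusted p of 0.0615 and was not called (edgeR, Benjamini-Hochberg). Leaving out either Scr library gave a call, at -0.76 without Scr replicate 1 and -1.76 without Scr replicate 2. With all libraries kept, *MT1X* was called by DESeq2 (adjusted p 0.00156) and by edgeR after correction of GC content and length (adjusted p 0.0468), both with Benjamini-Hochberg adjustment, and adjusted p ranged from 0.00156 to 0.846 over such alternatives.

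*MT1A* (gene 4489) was near the limit of detection, with 5 and 12 counts (Scr), 7 and 0 (miR-23a KO), 0 and 0 (miR-27a KO). Against a floor of 3 counts over the group, the level in miR-27a KO was at least 6.43-fold lower than in Scr. This bound pools the Scr libraries, at 0.35 and 0.81 CPM, and would be smaller from replicate 1 alone and larger from replicate 2 alone. *MT1B*, a further metallothionein 1 gene and the 1 gene found of 8 listed beside the members, had 6 and 1 counts (Scr), 4 and 1 (miR-23a KO), 0 and 0 (miR-27a KO), at least 2.65-fold lower by the same floor. The *MT1B* bound rests on Scr replicate 1, since the 1 count of Scr replicate 2 is under the floor. Floors and intervals cover counting error only. With *MT1A* set at its bound, the median log2 fold change of the 6 metallothionein members was -2.74, and it was -2.80 (-2.795 before rounding) over the 5 tested.

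**Figure D1:**
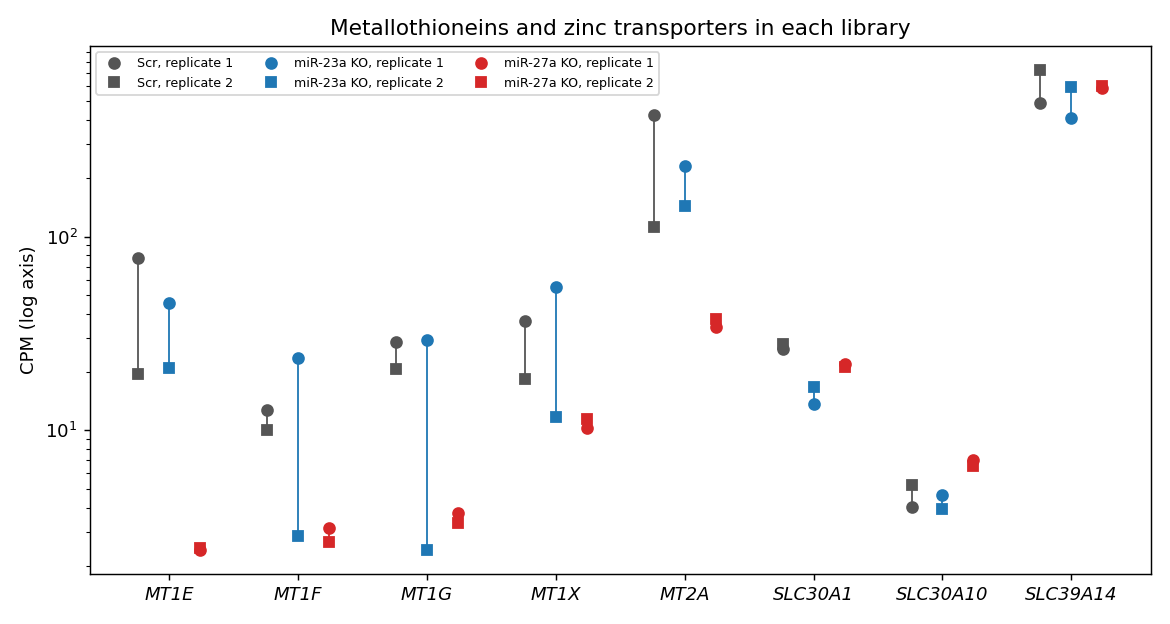
CPM (log axis) of 8 members in each library, with circles for replicate 1, squares for replicate 2 and a line joining the 2 libraries of a group. *MT2A* sits at 34.2 and 37.4 CPM in miR-27a KO, below its 4 other libraries; *MT1A*, with libraries at 0, is not drawn.

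All 5 tested metallothioneins were higher in replicate 1 than in replicate 2 in both Scr and miR-23a KO, but by different amounts. In Scr, *MT2A* was 3.76-fold and *MT1E* 3.98-fold higher in replicate 1 than in replicate 2, and 1.02% and 0.939% of genes were at least as far apart. *MT1F* and *MT1G* were 1.27-fold and 1.38-fold apart in Scr, as far apart as 39.4% and 28.1% of genes. *MT1X* was 2.00-fold apart in Scr, as far apart as 6.7% of genes. In miR-23a KO other genes were the furthest apart: *MT1G* was 12.1-fold, *MT1F* 8.27-fold and *MT1X* 4.63-fold higher in replicate 1. There *MT1E* was 2.16-fold and *MT2A* 1.6-fold higher in replicate 1. Only 0.81% of genes were as far apart as *MT1G* in miR-23a KO, and 64.5% as far apart as *MT2A*. In miR-27a KO the 5 genes were between 1.02-fold and 1.19-fold apart.

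Summed over 6 metallothioneins, the level was 577 and 181.5 CPM (Scr), 385 and 183 (miR-23a KO), 53.8 and 57.3 (miR-27a KO). Of these counts, the share from *MT2A* was 73% (95% Wilson interval 72.0% to 73.9%) and 61.8% (59.9% to 63.6%) for Scr, 60.1% (58.8% to 61.5%) and 79.1% (77.7% to 80.5%) for miR-23a KO, then 63.6% (60.4% to 66.7%) and 65.3% (62.2% to 68.3%) for miR-27a KO. *MT1E* gave 13.4% (12.7% to 14.2%) and 10.7% (9.61% to 11.9%) in Scr but 4.5% (3.33% to 6.08%) and 4.31% (3.19% to 5.80%) in miR-27a KO. *MT1X* gave 6.36% and 10.1% (Scr), 14.2% and 6.45% (miR-23a KO), 19.0% and 20.0% (miR-27a KO). Metallothionein RNA in miR-27a KO thus held a smaller share of *MT1E* and a larger share of *MT1X* than in any other library.

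**Figure D2:**
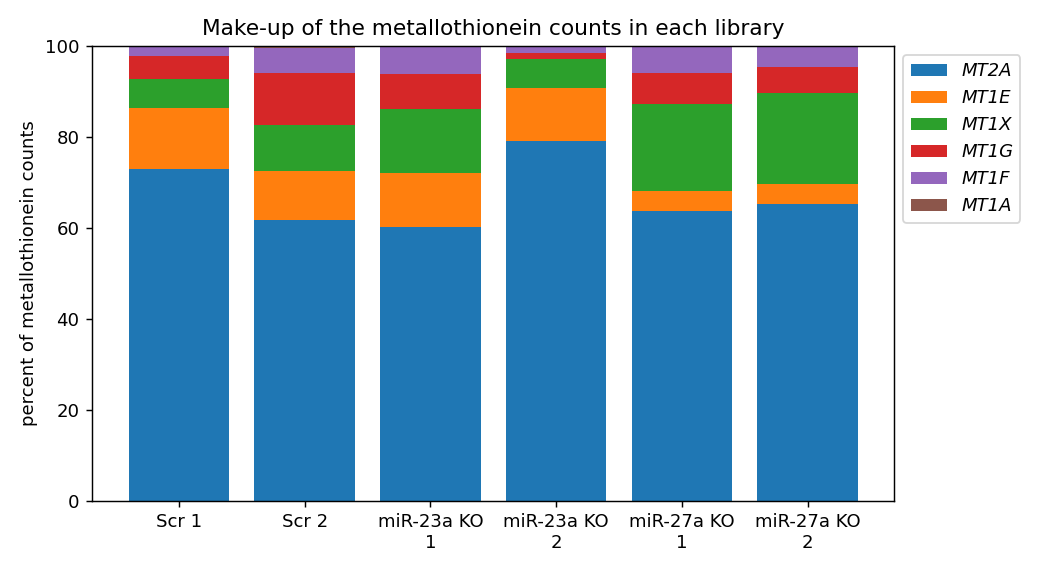
Percent of the metallothionein counts of each library (bars stacked to 100) that came from each of 6 genes. *MT2A* gives between 60.1% and 79.1%, and *MT1E* gives 4.5% and 4.31% in the miR-27a KO libraries.

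Reads of close paralogs can be split between them by the counting. Only the 7 metallothionein genes found in the table were compared, by the 31-base words of their transcripts. The share of words found in another of them was 22.9% for *MT1G*, 19.3% for *MT1X*, 13.4% for *MT1A*, 6.88% for *MT2A*, 5.79% for *MT1E* and 5% for *MT1F*. The other metallothionein genes of the cluster, *MT1M* among them, were not compared, so these shares are lower bounds. They do not settle which values are the least certain.

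For miR-27a KO against Scr, 13820 genes were tested. Calls required more than 1.5-fold change together with adjusted p below 0.05. By that rule 4 of 8 tested members were called lower, where 6.74% of genes were called lower, and 0 were called higher, where 3.52% were. Both miR-27a KO libraries lay below both Scr libraries for 6 of the 8 members, where this held for 31.9% of genes, and above them for 1, where it held for 32.4%. At the threshold of the study, an adjusted p under 0.001, 0 members and 0.0289% of genes were called in either direction. The median log2 fold change of the 8 was -1.66, beside 0.01 over all genes tested. Call counts moved with the model. A fit of all 6 libraries, which shares 1 estimate of the spread, called 0 members lower, beside 61 of 14163 genes. No filter on low counts left 2 members (*MT1F* and *MT1G*), beside 588 of 19324 genes called lower. DESeq2 called 5 members lower, beside 1058 of 13820 genes.

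Along chromosome 16 (RefSeq, GRCh38.p14), the metallothionein genes lie at chr16:56565073-56684196, a stretch of 119 kb (119.1) that holds 16 metallothionein genes, 11 of them protein coding and 7 found in the table. Genes within 250 kb on either side were taken after the values of the members were seen. Of the 8 found, 7 were tested and 0 were called in miR-27a KO, beside 3.52% of all genes called higher and 6.74% lower, with log2 fold changes from -0.35 (*NUP93*, a nuclear pore gene) to 0.83 (*SLC12A3*, a sodium chloride cotransporter gene) and a median of 0.04. The nearest tested genes on each side, *BBS2* and *NUP93*, had 28.5 and 23.4 and 152 and 117 CPM in Scr, and 32.2 and 31.8 and 104 and 107 CPM in miR-27a KO. For the 5 tested metallothioneins both miR-27a KO libraries lay below both Scr libraries, as they did for 2 of the 7 flanking genes (*NUP93* and *HERPUD1*, a stress-induced gene of the endoplasmic reticulum), and they lay above them for 3 other flanking genes. Over all genes these shares were 31.9% below and 32.4% above.

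**Figure D3:**
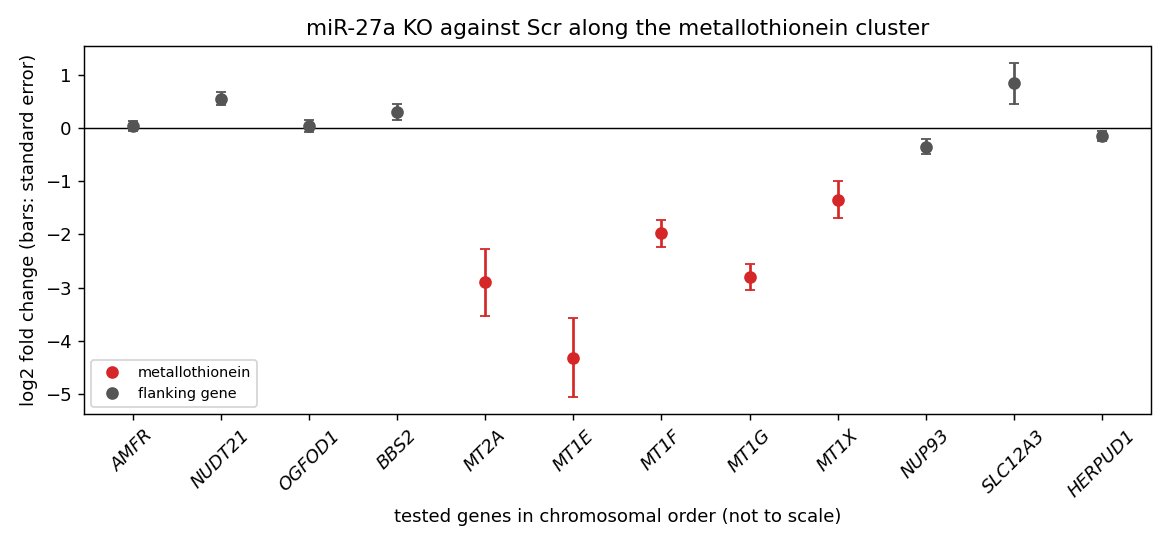
Log2 fold change of miR-27a KO against Scr (points, with standard errors as bars) for 12 tested genes in chromosomal order, not to scale. The 5 metallothioneins lie between -4.31 and -1.35 and the 7 flanking genes between -0.35 and 0.83.

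In miR-23a KO against Scr, 13786 genes were tested and 0 members were called higher or lower (edgeR's quasi-likelihood test). By the same rule 0% of all genes were called higher and 0% lower, and 0% in either direction under 0.001; without adjustment, p was below 0.05 for 118 higher and 214 lower genes, and DESeq2 called 4 genes higher and 59 lower, with 0 members among them. Log2 fold changes of the metallothioneins lay between -0.63 (*MT1G*, standard error 0.92) and 0.29 (*MT1X*, standard error 0.72), with a median of -0.45 beside 0.16 over all genes. Correction of GC content and length brought the latter median to 0.02 and turned the direction of *MT1F* from 0.22 to -0.20. Both miR-23a KO libraries were above both Scr libraries for 0 members, where this held for 8.88% of genes, and below them for 1 (*SLC30A1*), where it held for 14.9%.

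A single miR-23a KO library decided several of these values. Without miR-23a KO replicate 1, *MT1G* was at -3.29 and was called lower (adjusted p 0.0287 in edgeR with Benjamini-Hochberg adjustment, 0.0287 to 1 over the libraries left out), and *MT1F* was at -1.96 (-1.955). Without miR-23a KO replicate 2, *MT1G* was at 0.25. *MT1E* and *MT2A* turned from -0.50 and -0.45 to 0.80 and 0.77 without Scr replicate 1.

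Direct comparison of miR-23a KO with miR-27a KO addressed whether the KO groups differed from each other. All 3 comparisons share libraries, so their values are set side by side and are not independent. Of 13841 genes, 0% were called higher in miR-23a KO, 0% lower, and 0% in either direction under 0.001 (edgeR), while 645 higher and 562 lower genes had p below 0.05 without adjustment. *MT1E* was at 3.76 (adjusted p 0.114, standard error 0.54) and *MT2A* at 2.40 (adjusted p 0.1475, standard error 0.40) on the log2 scale, neither of them called in edgeR with Benjamini-Hochberg adjustment. The other metallothioneins lay between 1.62 (*MT1X*) and 2.19 (*MT1F*; 2.185). For 3 of the 8 members the miR-23a KO pair was entirely above the miR-27a KO pair (*MT1E*, *MT1X*, *MT2A*), where this held for 18.7% of genes, and below for 2 (*SLC30A1*, *SLC30A10*), where it held for 20.7%.

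This comparison depended on the model and on each miR-23a KO library. DESeq2 called 259 genes higher and 218 lower, *MT1E* and *MT2A* among those higher. Without miR-23a KO replicate 1, *MT1F* and *MT1G* turned to -0.03 and -0.55, and *MT1X* fell from 1.62 to 0.11. Without replicate 2, the 5 tested metallothioneins lay between 2.34 (*MT1X*) and 4.215 (*MT1E*).

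**Figure D4:**
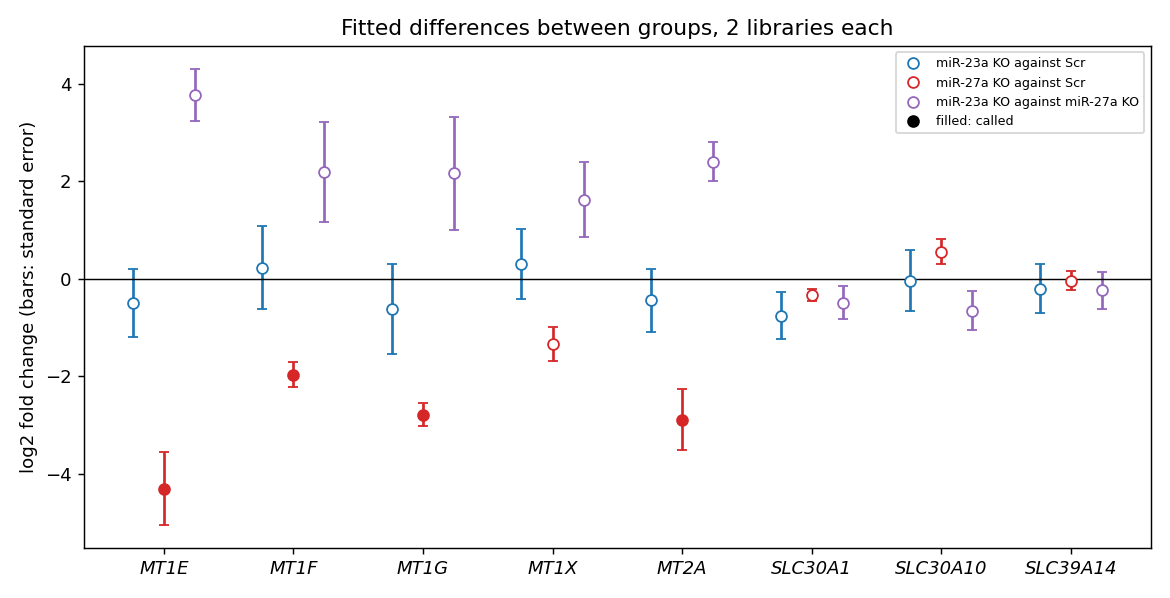
Fitted log2 fold change (points) with standard error (bars) of 8 members in 3 comparisons of 2 libraries against 2; filled points were called. The filled points are *MT1E*, *MT1F*, *MT1G* and *MT2A* in miR-27a KO against Scr.

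Among the exporters, *SLC30A1* (gene 7779, chr1:211571568-211579161) moves zinc out of the cell. It had 26.4 and 28.0 CPM (Scr), 13.7 and 16.8 (miR-23a KO), 22.0 and 21.3 (miR-27a KO). Scr was highest, miR-23a KO lowest, and the 3 groups did not overlap. Against Scr, miR-23a KO was at -0.76 (adjusted p 1.00, 0.9996, standard error 0.49) and miR-27a KO at -0.33 (adjusted p 0.14, standard error 0.13) on the log2 scale, and neither was called in edgeR with Benjamini-Hochberg adjustment. Correction of GC content and length moved *SLC30A1* to -1.21 in miR-23a KO and to -0.62 (-0.6152) in miR-27a KO, not called in either. Between the KO groups it was at -0.50, and at -0.65 and called lower in miR-23a KO without miR-23a KO replicate 2.

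*SLC30A10* (gene 55532, chr1:219910445-219959098) exports manganese at the surface of hepatocytes and is grouped with the zinc exporters by sequence. Its level was 4.03 and 5.21 CPM (Scr), 4.64 and 3.93 (miR-23a KO), 7.03 and 6.57 (miR-27a KO). Both miR-27a KO libraries were above the 4 others, while miR-23a KO overlapped Scr. In miR-23a KO against miR-27a KO, *SLC30A10* was at -0.66 on the log2 scale, and at -0.80 without miR-23a KO replicate 1. The log2 fold change in miR-27a KO was 0.55 (standard error 0.25; adjusted p 0.20, 0.1995, edgeR with Benjamini-Hochberg adjustment) and was not called. Without Scr replicate 2 it was 0.75 and passed the test.

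*SLC39A14* (gene 23516) carries zinc, manganese and iron into hepatocytes. It had 490 and 724 CPM (Scr), 406.5 and 591 (miR-23a KO), 587 and 596 (miR-27a KO). All groups overlapped, and the miR-27a KO libraries fell between the Scr libraries. Log2 fold changes were -0.21 (standard error 0.50) against Scr for miR-23a KO and -0.04 (standard error 0.19) for miR-27a KO, and the latter turned to 0.27 without Scr replicate 2.

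Levels between genes were compared per kilobase of transcript, from GENCODE lengths. In Scr the order of mean CPM per kb was *MT2A* (339.5 ± 278), *SLC39A14* (131 ± 35.6), *MT1E* (68.9 ± 58.4), *MT1X* (61.2 ± 28.8), *MT1G* (60.4 ± 13.7), *MT1F* (16.6 ± 2.80), *SLC30A1* (4.97 ± 0.2), *SLC30A10* (2.41 ± 0.432) and *MT1A* (1.46 ± 0.827; SD, n = 2 each). The first 5 overlapped with a neighbour within their spread, as did *SLC30A10* and *MT1A*, while *MT1F* and *SLC30A1* were apart from theirs. In miR-27a KO, *SLC39A14* at 127 ± 1.29 CPM per kb was above *MT2A* at 45.6 ± 2.85, and *MT1E* at 3.48 ± 0.0459 was below *SLC30A1* at 3.95 ± 0.0948 and overlapped *SLC30A10* at 3.55 ± 0.171.

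Genes of related function were counted by the same rule in lists written with earlier results known. Their calls come from the fit of each pair of groups alone. For miR-27a KO against Scr that fit called 1418 genes and a fit of all 6 libraries 64. Which list genes kept a call in the latter was not examined. Of the other SLC30 exporters, 8 of 9 were found and 5 tested; 0 were called in any of the 3 comparisons (over all genes 3.52% higher and 6.74% lower in miR-27a KO against Scr, and 0% in the other 2), with a median log2 fold change of 0.40 in miR-27a KO and 0.46 in miR-23a KO. The most abundant were *SLC30A5*, *SLC30A6* and *SLC30A9*, with 0.08, 0.40 and 0.45 in miR-27a KO. Of the other SLC39 importers, 12 of 13 were found, 10 were tested in miR-27a KO, and 1 was called lower, beside 6.74% of all genes: *SLC39A3*, a plasma membrane zinc importer gene.

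*SLC39A3* had 138 (137.5) and 96.9 CPM (Scr), 319 and 78.0 (miR-23a KO), 59.6 and 61.5 (miR-27a KO). Both miR-27a KO libraries were the lowest, and the log2 fold change against Scr was -0.96 (-0.9566, standard error 0.18; adjusted p 0.0302, edgeR with Benjamini-Hochberg adjustment). The 3 most abundant of the remaining importers, *SLC39A4*, *SLC39A7* and *SLC39A1*, had -0.28, -0.05 and -0.40 and were not called, the last with a fold change under 1.5. The median over the 10 was -0.05, and it was 0.37 over 11 importers in miR-23a KO, with 0 called.

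Of 11 regulators of metallothionein transcription, all 11 were tested and 0 were called in the 3 comparisons, beside the 3.52% and 6.74% of all genes in miR-27a KO and 0% in the others, with a median log2 fold change of 0.09 in miR-27a KO and 0.19 in miR-23a KO. *MTF1* (gene 4520), the metal-responsive factor, had 1.39 and 2.37 CPM (Scr), 0 and 6.52 (miR-23a KO), 5.15 and 5.60 (miR-27a KO). Its 0 in miR-23a KO replicate 1 allows up to 0.228 CPM (3 counts). Both miR-27a KO libraries were above Scr, in the direction opposite to the metallothioneins; the log2 fold change was 1.51 (standard error 0.36) and the adjusted p 0.0505, which was not called (edgeR, Benjamini-Hochberg). The most abundant others, *USF2*, *STAT3* and *NFE2L2*, had -0.21, -0.09 and -0.21 in miR-27a KO.

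Among 14 genes of copper and manganese handling, 2 were called higher and 1 lower in miR-27a KO, beside 3.52% and 6.74% of all genes, with a median of 0.07 (0.18 in miR-23a KO, 0 called). *CP*, which encodes the copper-carrying ferroxidase ceruloplasmin, had 25.6 and 12.2 CPM (Scr), 4.19 and 22.9 (miR-23a KO), 83.2 and 82.1 (miR-27a KO). It rose by 2.13 on the log2 scale (standard error 0.33; adjusted p 0.0212). *SLC11A2*, a divalent metal importer gene, rose by 0.59 (standard error 0.09; adjusted p 0.0186), and *SLC40A1*, the iron exporter ferroportin, had -1.40 (standard error 0.31; adjusted p 0.0437), all by edgeR with Benjamini-Hochberg adjustment. The more abundant *SOD1*, *ATP13A1* and *SLC31A1* had 0.22, -0.43 and -0.13 and were not called.

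Of 12 metal and heat stress genes other than metallothioneins, 12 were tested and 0 were called in any comparison, where 3.52% and 6.74% of all genes were in miR-27a KO and 0% in the others, with a median of -0.08 in miR-27a KO and 0.28 in miR-23a KO. *HSPA8*, a chaperone gene, had 757 and 1039 CPM (Scr), 1571 and 1207 (miR-23a KO), 1365 and 1376 (miR-27a KO). *NQO1* and *DNAJB1* had log2 fold changes of -0.54 and -0.46 in miR-27a KO. Over the 12 genes the values in miR-27a KO lay between -0.56 and 0.61, closer to 0 than those of the 5 tested metallothioneins.

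Glucocorticoid-responsive genes were found in 9 of 9 cases and tested in 7, and 3 were called lower in miR-27a KO, beside 6.74% of all genes, with a median of -1.13 (-0.19 in miR-23a KO, 0 called). *TSC22D3*, a glucocorticoid-induced leucine zipper gene, had 63 and 20 counts (Scr), 39 and 28 (miR-23a KO), 2 and 5 (miR-27a KO). It fell by 3.71 on the log2 scale (adjusted p 0.0456), *SGK1*, a kinase gene, by 1.91 (adjusted p 0.0102) and *DUSP1*, a phosphatase gene, by 1.32 (adjusted p 0.0482), by edgeR with Benjamini-Hochberg adjustment. *ERRFI1*, *FKBP5* and *PER1* had 0.39, 0.54 and -0.06 and were not called.

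In the interleukin-6 and STAT3 list, 10 of 11 were found and 8 tested in miR-27a KO, of which 3 were called lower, beside 6.74% of all genes, with a median of -0.90. In miR-23a KO the median was also low, -1.002, and 5 of 8 were below both Scr libraries, beside 14.9% of all genes, with 0 called. *SOCS3*, a feedback inhibitor of this signal, had 149 and 40 counts (Scr), 3 and 17 (miR-23a KO), 3 and 6 (miR-27a KO). Its log2 fold change in miR-27a KO was -4.55 (standard error 0.88; adjusted p 0.0325), beside -2.05 for *FGB*, a fibrinogen gene (adjusted p 0.0212), and -1.56 (-1.555) for *JUNB* (adjusted p 0.0125), by edgeR with Benjamini-Hochberg adjustment. *HAMP*, the hepcidin gene, had 123 and 52.5 CPM (Scr), 13.4 and 21.6 (miR-23a KO), 31.03 and 30.5 (miR-27a KO) and was not called, nor were *IL6R* (0.22) and *JAK1* (0.44).

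**Figure D5:**
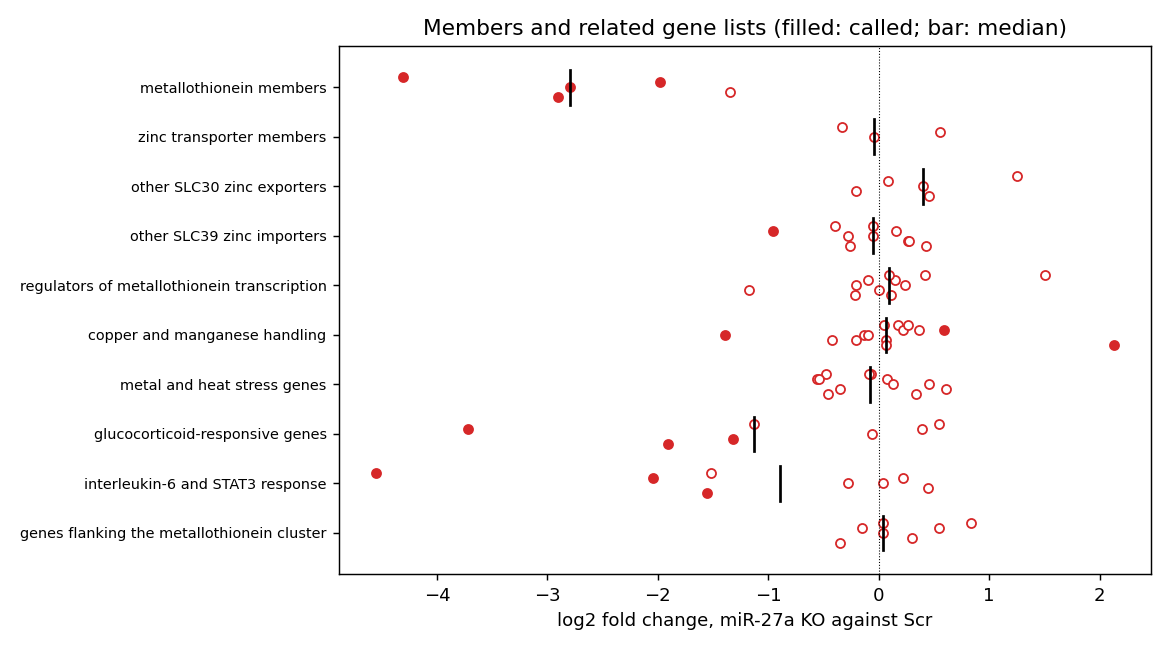
Log2 fold change of miR-27a KO against Scr for each tested gene of 10 lists (points; filled where called) with the median of each list as a vertical bar. The metallothionein members have the lowest median, -2.80 (-2.795), and the zinc transporter members lie between -0.33 and 0.55.

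The genes whose pattern over the 6 libraries was most like that of *MT2A*, by Pearson's r of log2 CPM among 3354 genes of at least 10 CPM, were *DUSP1* (r = 0.985), *NCS1* (r = 0.984, 0.9835) and *SLC2A1* (r = 0.977). *DUSP1* had 41.9 and 22.85 CPM (Scr), 26.8 and 27.4 (miR-23a KO), 12.7 and 13.25 (miR-27a KO). Most like *SLC30A1* were *SLC4A11* (r = 0.985), *TTC28-AS1* (r = 0.983) and *HKDC1* (r = 0.955), and most like *SLC30A10* were *ANXA4* (r = 0.995), *PCYT1B* (r = 0.984) and *TESK2* (r = 0.98). With n = 6 in 3 groups, r describes mainly the order of the groups, so no p is given.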

How the data were processed

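RNA-seq of 6 HepG2 libraries in 3 groups was analysed. Values deposited by the authors were taken to be expected counts, although the columns are named FPKM and the counting tool is not given in the sources used here: their sums differ between libraries and, of the values above 0, 34.5% to 40.8% are exactly whole. The submitters' processing notes name HISAT, StringTie, Cufflinks and GATK, without versions or roles, and the genome build is not given in the sources used here. Expected counts were rounded. Low counts were removed with filterByExpr, libraries were scaled by TMM, and each pair of groups was fitted alone by glmQLFit and glmQLFTest (R 4.3.3, edgeR 4.0.16), with Benjamini-Hochberg adjustment over the genes tested. Calls required more than 1.5-fold change together with adjusted p below 0.05; counts under 0.001, the threshold of the study, are given beside. The standard error was derived from the quasi-F statistic. CPM used TMM factors of all 6 libraries (0.796 to 1.17), and log2 CPM a prior count of 2. A count of 0 was given a floor of 3 counts.

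Alternatives were DESeq2 1.42.0, median-ratio size factors, a single model for the 6 libraries, keeping low counts, blocking on replicate number, loess correction for GC content and length (span 0.5, degree 2) and leaving out each library. Lengths and 3'-UTRs came from GENCODE release 29, which matched 88% of the genes and 94.9% of those tested, and sequences and positions from RefSeq (GRCh38.p14). Genes named outside the members were those called, *MTF1*, and up to 3 more per list by mean CPM; likeness was ranked among genes with an SD of log2 CPM of at least 0.5. The members and lists were chosen with earlier results of these data known, and the flanking genes after their neighbours' values were seen. The workflow was run on simulated data to check the code. Recovery of changed genes was required there only at a smaller spread between replicates than in any comparison here. No value column was left out. Python 3.11.15 and matplotlib 3.10.9 drew the figures.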

Additional observations from a re-analysis of the deposited data

How the results depend on the processing

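For miR-27a KO against Scr, all 5 tested metallothioneins kept a lower level under each of the 7 alternatives with all libraries and each of 4 libraries left out. Members called numbered 4, and 3 to 6 on leaving out a library; no filter on low counts gave 2 and a fit of all 6 libraries 0. Genes called numbered 1418, 892 without the filter, 64 in the fit of all 6, and 334 to 3716 on leaving out a library. *SLC39A14* lay between -0.29 and 0.27.

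For miR-23a KO against Scr, 0 members were called, and 0 to 1 on leaving out a library. Genes called numbered 0, but 63 with DESeq2, 10 without the filter, 3 in the fit of all 6, 3 with GC content and length corrected, and 4 to 2630 on leaving out a library. *MT1F* turned to -0.20 with GC content and length corrected. Leaving out a library gave ranges of -1.18 (-1.176) to 0.80 for *MT1E*, -1.96 (-1.955) to 1.04 (1.045) for *MT1F*, -3.29 to 0.25 for *MT1G*, -1.18 to 0.99 for *MT1X*, -1.11 to 0.77 for *MT2A*, -0.25 to 0.15 for *SLC30A10* and -0.58 to 0.11 for *SLC39A14*.

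For miR-23a KO against miR-27a KO, 0 members were called, but 2 with DESeq2 and 2 with GC content and length corrected, and 0 to 6 on leaving out a library. Genes called numbered 0, but 477 with DESeq2, 218 in the fit of all 6, 335 with GC content and length corrected, and 72 to 7303 on leaving out a library. *MT1F* ranged from -0.03 (-0.02991) to 3.02 (3.025) and *MT1G* from -0.55 to 3.05.

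Whether the replicate numbers pair the samples is not known. The correlation of replicate differences was 0.19 between Scr and miR-23a KO, -0.01 between Scr and miR-27a KO and 0.01 between the KO groups. These values cannot decide it, since the miR-27a KO libraries hardly differed from each other. With the replicate block, 69 genes were called in miR-23a KO against Scr, 1693 in miR-27a KO against Scr (5 members) and 400 between the KO groups (2 members). With the block and GC content and length corrected, the numbers were 24, 1588 (6 members) and 1230 (5 members). In miR-23a KO against Scr *MT1F* was at -0.37 with the block and -0.40 with both, and *MT1X* at -0.02 (-0.01543) with both. In the same comparison *MT1G* moved from -0.63 to -1.41 with the block and to -1.45 with both. *SLC30A1* was called lower in miR-27a KO with both (-0.61), as was *MT1X* with the block (-1.27) and with both (-1.25).

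A library left alone in its group was assumed to vary like the other group. The cause of these shifts was not tested. Alternatives for FPKM values could not be run on counts. Depth limits *MT1A* and *MT1B*, with at most 12 counts in a library.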
